A study of Mus musculus with 23 samples.

Results

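The genes followed here mark restrained or chronically stimulated T cells, and they were measured in the T cells of mice carrying a changed amino acid in STAT5B. They were Pdcd1, Lag3, Tigit, Havcr2, Cd160, Entpd1, Slamf6, Slamf7 and Tox, 9 of the 32285 genes in the count tables, and they were taken by name. T cells were found by their own transcripts. A barcode was taken as a T cell when it held at least 1 unique molecular identifier (UMI, a tag that marks 1 captured RNA molecule) of Cd3d, Cd3e or Cd3g and no UMI of a short list of B cell genes that includes Cd79a, Cd79b and Ms4a1. It fell in the CD8 gate with a UMI of Cd8a or Cd8b1 and none of Cd4 or Foxp3, in the CD4 gate with a UMI of Cd4 and none of Cd8a, Cd8b1 or Foxp3, and in the Foxp3 gate with a UMI of Foxp3 and none of Cd8a or Cd8b1. These gates held 20400 of the 63974 barcodes in 7 lymph node and 3 spleen libraries.

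The mice were C57BL/6 by the labels (C57BL/6N by the study's methods), 2 months old, and no other allele or treatment is given for them. The lymph node libraries came from wild-type mice (WT, n = 2), from mice labelled het (n = 3) and from mice labelled homo (n = 2) for STAT5B-Y665F, in which a tyrosine of the SH2 domain is phenylalanine. The spleen libraries, 1 each, were WT, STAT5B-Y665F and STAT5B-Y665H, where the same tyrosine is histidine. By the study's methods the alleles are in the germline and so in every cell of the mouse, and the Y665F allele was made with a donor that also carries a silent base change. A figure legend of the study, titled for the spleen but naming lymph nodes in its text, gives 1 sample combined from 3 mice in each group. The labels do not give the number of mutant copies in the spleen samples. The allele leaves the gene's transcript to be counted as before, so the level of Stat5b does not check the labels, and the reads themselves were not used here.

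Lymph node and spleen were compared only within each tissue, because the libraries of the lymph node and of the spleen were counted with different releases of the authors' software and the sources name both a 3′ and a 5′ kit. The median UMI count per barcode was 368 to 3116 in the lymph node and 5046 to 6487 in the spleen. The libraries het 3 and homo 1 were shallow, with a median of 496.5 and 511 UMIs in a CD8-gated cell against 1197 to 3850 in the other 5. Pairs of lymph node libraries shared 26 to 91 barcodes and pairs of spleen libraries shared 7 to 18. The CD8 gate held 866 to 2106 cells in a lymph node library, the CD4 gate 110 to 792 and the Foxp3 gate 33 to 195. Because a gate needs a UMI, the CD4 gate may also hold regulatory T cells in which Foxp3 was missed. Of the 5 regulatory markers Foxp3 is absent there by definition. The other 4, some of which activated T cells also make, were detected in each library, and which cells held them was not tested.

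The receptor PD-1, made from Pdcd1, together with LAG-3 (Lag3), TIGIT (Tigit) and TIM-3 (Havcr2) are inhibitory receptors, or checkpoints, that dampen signals from the T cell receptor. They appear for a short time after activation and stay on when antigen persists, a state called exhaustion, which the DNA-binding protein TOX (Tox) helps to set up. PD-1 and TIGIT are also carried by follicular helper T cells, and TIGIT by regulatory T cells. CD160 marks memory and innate-like cytotoxic cells, CD39 (Entpd1) breaks down extracellular ATP, and Slamf6 and Slamf7 encode receptors of the SLAM family, the first typical of stem-like T cells and the second of cytotoxic cells and B-lineage cells. STAT5B carries signals of interleukin-2, interleukin-7 and interleukin-15 into the nucleus, where STAT5 dimers bind a palindrome of the form TTCNNNGAA.

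In the GRCm38 genome the genes lie apart from each other with 1 exception. Pdcd1 spans chr1:94038305-94052553 on the minus strand, Lag3 chr6:124904361-124911705 (minus), Tigit chr16:43648867-43664146 (minus), Havcr2 chr11:46454935-46481255 (plus), Tox chr4:6686353-6991557 (minus), Cd160 chr3:96798763-96829351 (minus) and Entpd1 chr19:40612366-40741602 (plus). Slamf7, at chr1:171632403-171653035 on the minus strand, and Slamf6, at chr1:171917515-171953170 on the plus strand, are in the same gene cluster with 264479 bases between them. Slamf7 and Slamf6 are the pair that went separate ways below, so the 250 bases before their RefSeq start sites are shown, with a window of Cd160 that is the only member window holding a searched motif. Capitals mark a match to the STAT5 palindrome TTCNNNGAA or to TCACACC, the core bound by T-box factors such as T-bet and EOMES, on either strand.
Slamf7, chr1:171649000-171649249, minus strand: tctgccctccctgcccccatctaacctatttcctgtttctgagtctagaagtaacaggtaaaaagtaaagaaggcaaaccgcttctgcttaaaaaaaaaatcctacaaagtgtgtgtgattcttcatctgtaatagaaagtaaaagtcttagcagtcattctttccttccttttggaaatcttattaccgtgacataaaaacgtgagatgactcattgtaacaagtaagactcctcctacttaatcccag
Slamf6, chr1:171917212-171917461, plus strand: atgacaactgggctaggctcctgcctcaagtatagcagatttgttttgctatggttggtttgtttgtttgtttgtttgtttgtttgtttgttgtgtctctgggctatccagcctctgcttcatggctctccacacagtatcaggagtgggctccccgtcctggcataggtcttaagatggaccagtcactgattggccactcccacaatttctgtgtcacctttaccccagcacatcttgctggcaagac
Cd160, chr3:96814522-96814771, minus strand: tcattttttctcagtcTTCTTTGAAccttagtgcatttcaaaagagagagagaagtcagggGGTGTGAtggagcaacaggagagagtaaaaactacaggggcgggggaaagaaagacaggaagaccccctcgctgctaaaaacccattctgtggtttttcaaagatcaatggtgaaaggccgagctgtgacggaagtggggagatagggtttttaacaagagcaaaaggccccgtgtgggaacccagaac
The bases are from RefSeq (GRCm38.p6) and run 5′ to 3′. The table held 9 windows for 7 of the 9 genes, and none for Lag3 and Tox. TTCNNNGAA was found in 1 of these 9 windows and in 7.02% of all 32851 promoter windows, and TCACACC in 1 of 9 and in 3.33%. Both matches lie in the Cd160 window shown, with their first base 234 and 189 bases before its start. This window lies inside the Cd160 span given above, and the Slamf7 window shown lies inside the Slamf7 span. The other Cd160 window, chr3:96829352-96829601, borders the Cd160 span and holds neither motif. No match says only that these letters are not in the window.

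In CD8-gated cells of the lymph node, Slamf7 was the member that passed the test, and it was higher in the homo libraries. Its level was 22.9 and 9.99 CPM (UMIs per 1000000 UMIs of the gate) in WT 1 and WT 2, 28.0, 22.7 and 43.3 CPM in het 1 to het 3, and 29.5 and 42.9 CPM in homo 1 and homo 2. Both homo libraries lay above both WT libraries, while het 2 lay level with WT 1. The difference homo minus WT was 1.53 on the log2 scale (SE 0.335, edgeR quasi-likelihood test, Benjamini-Hochberg adjusted p = 0.0208), het minus WT was 1.005 (SE 0.291, adjusted p = 0.156) and homo minus het was 0.52 (SE 0.265, adjusted p = 0.787). Of the 9 genes, 5 had enough UMIs in this gate to be tested. With homo minus WT 1 of the 5 was called, where 2.15% of all 9360 genes tested were, with het minus WT none was, against 1.06%, and with homo minus het none was, against 0.0107%. At an unadjusted edgeR p under 0.05 the counts were 2, 1 and 0 of the 5, beside 1312, 878 and 620 of all 9360 genes. DESeq2 called 0 members in each.

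The Slamf7 call rested on a few libraries. Without WT 2, the lowest library, the difference was 0.82 (edgeR, adjusted p = 0.333), and without homo 2 it was 1.05 (adjusted p = 0.553), whereas without het 3 and homo 1, the shallow ones, it was 1.68 (adjusted p = 0.00992). DESeq2 gave 1.31 (adjusted p = 0.185).

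**Figure D1:**
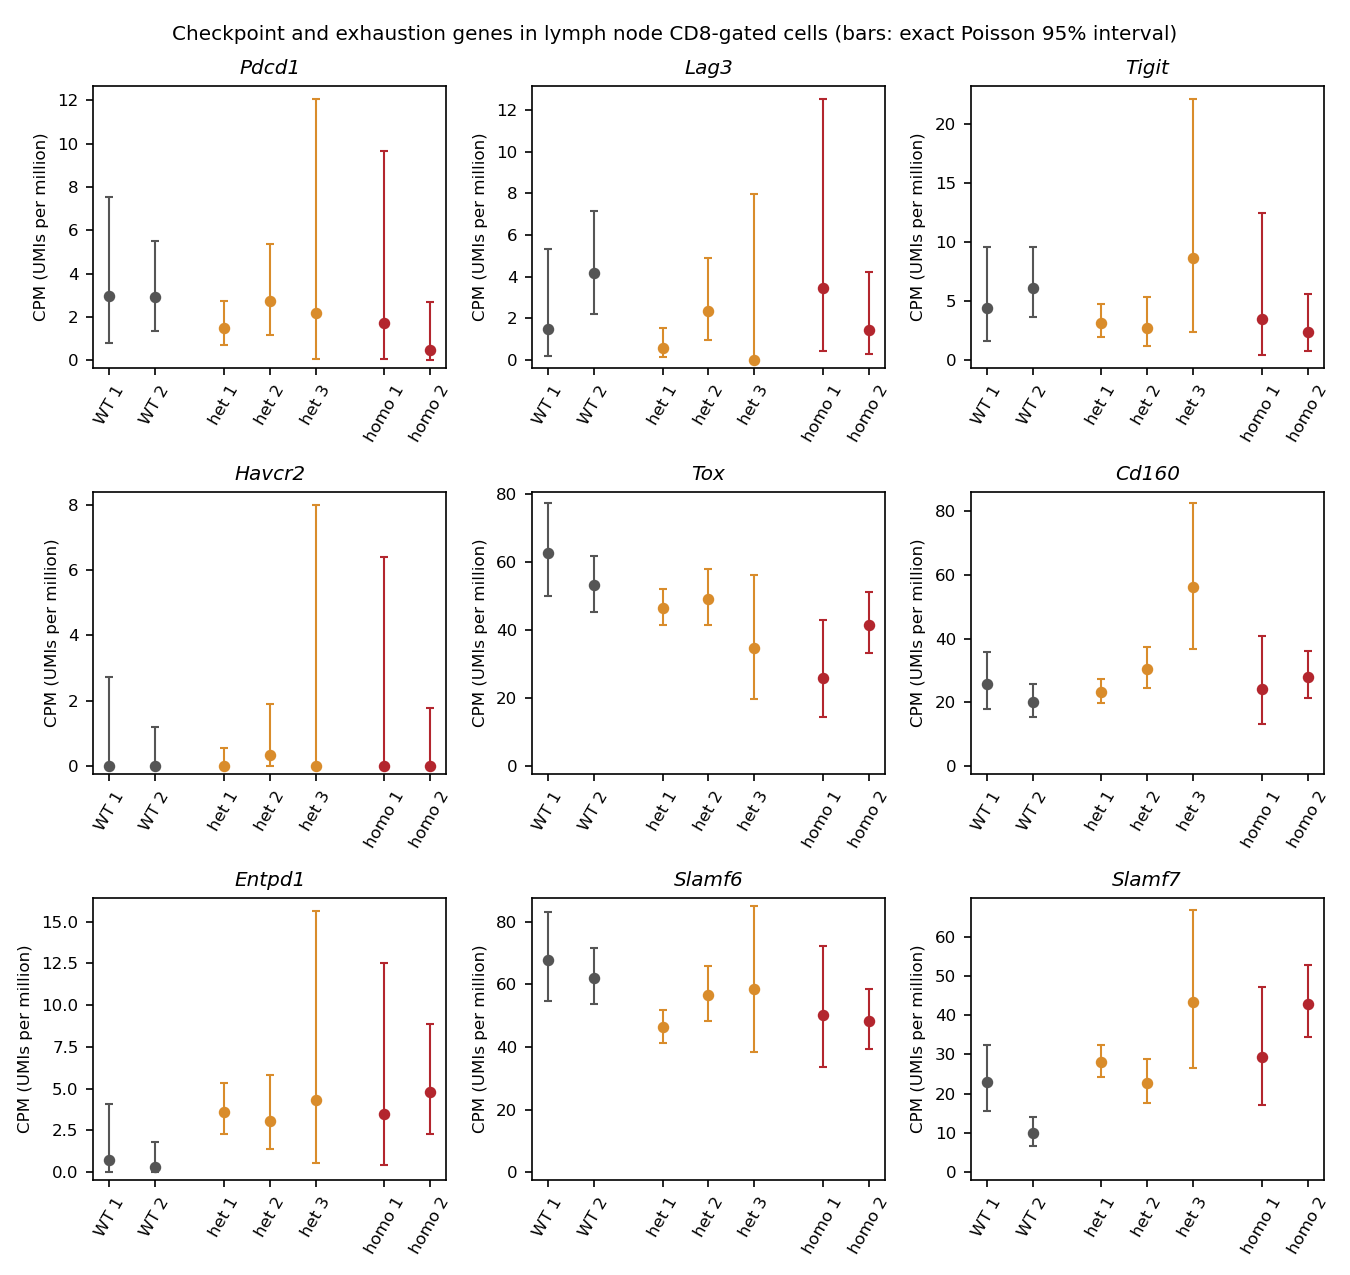
Level of each of the 9 genes in CD8-gated cells of the 7 lymph node libraries, in CPM on a linear axis that differs between panels, with 1 point per library and its exact Poisson 95% interval. Slamf7 lies at 9.99 to 22.9 in WT and at 29.5 to 42.9 in the homo libraries, while Havcr2 is at 0 in 6 of 7 libraries.

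Entpd1, the CD39 ectoenzyme, was scarce but followed the same order. It had 1 UMI each in WT 1 and WT 2, 24, 9 and 2 UMIs in het 1 to het 3, and 2 and 10 UMIs in homo 1 and homo 2. The levels were 0.737 and 0.322 CPM in WT, 3.05 to 4.33 CPM in het and 3.47 to 4.82 CPM in homo, so that each mutant library lay above both WT libraries. These counts were below the filter for low counts. Fitted with no filter, Entpd1 was higher by 3.23 on the log2 scale in homo (SE 0.948, edgeR adjusted p = 0.0400) and by 2.88 in het (SE 0.825, adjusted p = 0.0499). In that fit Slamf7 and Entpd1, 2 of the 9 members, were called in both contrasts (Slamf7 het minus WT 1.01, edgeR adjusted p = 0.00111), where 1.83% of 15750 genes were called for homo minus WT and 0.965% for het minus WT. With the filter, Slamf7 in het minus WT had nearly the same difference and was not called, so that call depended on the filter. The Entpd1 calls rest on 1 UMI in each WT library.

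Tox, the exhaustion regulator, was at its highest in WT. It measured 62.7 and 53.1 CPM in WT 1 and WT 2, 46.6, 49.2 and 34.6 CPM in het, and 26.0 and 41.5 CPM in homo. The WT libraries did not overlap the mutant ones, but homo minus WT, -0.54 on the log2 scale (SE 0.203), did not pass the edgeR test over all genes (adjusted p = 0.193), nor did het minus WT, -0.22 (SE 0.153, adjusted p = 0.709). Slamf6, the SLAM receptor of stem-like cells, stood at 67.8 and 62.2 CPM in WT, 46.3, 56.6 and 58.5 CPM in het and 50.3 and 48.2 CPM in homo. Here too the WT libraries were the highest, and the differences, -0.35 (SE 0.180, edgeR adjusted p = 0.390) and -0.27 (SE 0.142, adjusted p = 0.576) for homo and het against WT, did not pass. How many of all genes part WT from the mutant libraries in this way was not counted, in this gate or in the CD4 gate.

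Cd160 showed no order by genotype. It was at 25.8 and 19.97 CPM in WT, 23.4, 30.5 and 56.3 CPM in het and 24.3 and 28.0 CPM in homo. The difference homo minus WT was 0.36 (SE 0.297, edgeR adjusted p = 0.652).

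The checkpoint receptors themselves were close to the limit of detection in CD8-gated cells of all genotypes. Pdcd1 had 4 and 9 UMIs in WT, 10, 8 and 1 in het and 1 each in homo, or 2.95 and 2.90 CPM in WT, 1.49 to 2.71 CPM in het and 1.73 and 0.482 CPM in homo. Lag3 was at 1.47 and 4.19 CPM in WT, 0 to 2.37 CPM in het and 3.47 and 1.45 CPM in homo. Tigit was at 4.42 and 6.12 CPM in WT, 2.71 to 8.66 CPM in het and 3.47 and 2.41 CPM in homo, and was tested (homo minus WT -0.9997, SE 0.653, edgeR adjusted p = 0.538). Havcr2 gave 1 UMI, in het 2, in the whole gate. Tigit was not called in the mutant CD8-gated cells with the filter on low counts, and none of the 4 receptors was called in the fit without it. Known changes were put into simulated counts for homo minus WT in this gate. The test recovered 24% of 50 changes set at 2-fold and 14% of 50 set at 0.5-fold. It recovered 100% of 50 set at 4-fold and 88% of 50 set at 0.25-fold. The changes were set only in genes with more UMIs in the gate than Tigit, and the spread between libraries was assumed, not estimated. These shares therefore do not apply to Tigit, and recovery at its low UMI counts was not tested. Pdcd1, Lag3 and Havcr2 were below the filter, and the simulated counts, which covered only genes past it, give no measure of what the test could find for these 3.

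B-gated cells of the same libraries gave the background. The B gate held 0 to 0.795 CPM of Pdcd1 and of Lag3, 0 to 0.902 CPM of Tigit and no Havcr2 in the lymph node. Slamf7 and Slamf6 are made by B cells and were at 55.9 to 94.9 and 105 to 131 CPM there, and Entpd1 at 7.16 to 26.5 CPM, so for these 3 genes RNA from B cells could add UMIs to a T cell barcode, and its part was not tested. With 1 B cell UMI allowed in a T cell, Slamf7 in homo minus WT was 1.55.

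Summed levels of gamma-delta T cell and NK cell markers were also higher in the mutant libraries in this gate, though not for each marker. The summed level of 4 gamma-delta T cell markers was 6.76 to 14.0 CPM in WT, 34.2 to 45.5 in het and 81.5 to 82.9 in homo, most of it Cd163l1, with Trdv4 and Tcrg-C1 at 0 in both WT libraries. Trdc, the constant part of the delta chain, did not follow this order, with 4.03, 5.83 and 4.90 CPM over the libraries of WT, het and homo. The summed level of 5 NK cell markers was 43.2 to 70.03 CPM in WT, 82.4 to 132 in het and 101 to 108 in homo, most of it Eomes, which T cells make too, while Ncr1 had 1 UMI in WT, 3 in het and 0 in homo. Klre1 was at 1.79, 14.6 and 13.96 CPM and Klra8 at 0.448, 3.46 and 3.02 CPM over the libraries of WT, het and homo. Klrb1c was at 0.672, 1.88 and 0.754 CPM, with homo close to WT. The part of these markers in the Slamf7 result was not tested.

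The CD8 gate pools naive and memory cells, so it was split by Ccl5, a chemokine stored by memory and effector CD8 T cells. The share of cells with a Ccl5 UMI was 7.80% and 7.08% for WT, 37.0%, 27.7% and 30.4% for het, and 37.8% and 47.8% for homo. WT lay apart from the mutants by more than the replicates differed, while het 1 and homo 1 were close to each other, and a cell's depth also sets whether a Ccl5 UMI is seen.

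Slamf7 was then compared within each fraction. In cells with a Ccl5 UMI, Slamf7 was at 94.96 and 47.2 CPM in WT, 52.9, 51.3 and 80.3 CPM in het and 58.9 and 64.0 CPM in homo. In cells without one it was at 14.8 and 6.36 CPM in WT, 9.59, 8.61 and 23.3 CPM in het and 8.85 and 17.9 CPM in homo. The ranges overlapped in both fractions. Homo minus WT was 0.01 with Ccl5 (SE 0.341, edgeR adjusted p = 0.999) and 0.78 without (SE 0.490, adjusted p = 0.658). The values in cells without Ccl5 rest on 3 to 37 Slamf7 UMIs a library.

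In cells without Ccl5 none of 4 members tested was called, where 0.258% of 8536 genes were in homo minus WT and 0.0234% in het minus WT. In cells with Ccl5 none of 2 was called, where 0.0221% of 4533 genes were in homo minus WT and 0% in het minus WT, the last with 234 genes at an unadjusted p under 0.05. The gene called in homo minus WT there was Ccl5 itself, which defines the fraction (0.99 on the log2 scale, edgeR adjusted p = 0.0313). In cells without Ccl5 the memory marker Ly6c2 (0.82, edgeR adjusted p = 0.0123) and the STAT5 target Bcl2 (0.74, edgeR adjusted p = 0.0496) were called in homo minus WT. No member had an unadjusted p under 0.05 in either fraction, and DESeq2 was not run on the split.

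**Figure D2:**
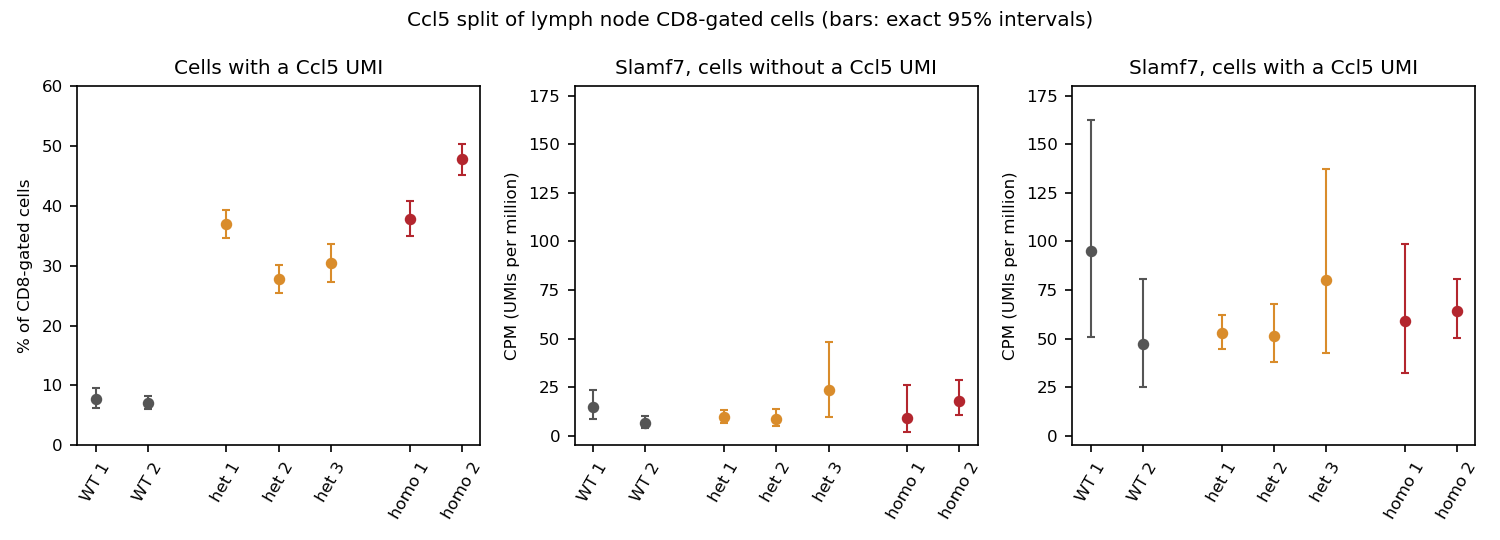
Left, percent of CD8-gated lymph node cells with a Ccl5 UMI in each library (exact binomial 95% interval), and middle and right, Slamf7 in CPM in cells without and with a Ccl5 UMI (exact Poisson 95% interval). The share runs from 7.08% to 7.80% in WT and from 27.7% to 47.8% in the mutants, while the Slamf7 ranges of the genotypes overlap in both fractions.

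The split showed 2 opposed sets among the members, and this held whatever the genotype. Slamf7 was higher in the Ccl5 cells in 7 of 7 lymph node libraries (median 58.9 against 9.59 CPM) and so was Cd160 (43.5 against 17.9 CPM). Tox was lower there in 7 of 7 (28.7 against 55.5 CPM) and so was Slamf6 (31.1 against 68.9 CPM). The spleen gave the same directions in 3 of 3 libraries for each of the 4 genes, though Tox was nearly level in Y665H. The spleen medians with and without Ccl5 were 61.3 and 7.06 CPM for Slamf7 and 48.4 and 15.8 CPM for Cd160. They were 62.2 and 72.9 CPM for Tox and 160 and 212 CPM for Slamf6. Entpd1 was higher in the lymph node Ccl5 cells in 5 of 7 libraries (median 5.96 against 1.81 CPM, on 33 and 16 UMIs). Pdcd1 was lower there in 6 of 7 (median 0 against 2.95 CPM, on 6 and 28 UMIs). The share of the gate's Slamf7 UMIs that came from Ccl5 cells was 41.9% in each WT library and 65.0% to 82.4% in the mutants.

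Around the members, the memory markers moved together in the CD8 gate. All 5 memory markers rose in homo, among them Ccl5 by 3.38 on the log2 scale (edgeR adjusted p = 0.00120), the chemokine receptor Cxcr3 by 1.58 (3.2e-08), Ly6c2 by 1.19 (1.18e-06) and Cd44 by 1.17 (0.00125), and the same 5 rose in het. The median of this list was 1.19 in homo and 0.89 in het, where the median of all genes tested was -0.01 in each. None of the 5 naive markers passed (median 0.00 in homo and -0.06 in het).

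Beside the following counts stands the share of all genes called, 2.15% in homo and 1.06% in het. Of 12 other inhibitory receptors 8 were tested, and 1 rose in both contrasts, Lair1, a collagen receptor, by 1.44 in homo (edgeR adjusted p = 0.0265) and 1.31 in het (0.0189); the list's median was 0.28 and 0.22. Of 17 exhaustion-linked transcription factors 15 were tested and 2 rose, the T-box factors Tbx21 by 1.93 in homo (edgeR adjusted p = 5.4e-06) and 1.68 in het (6.78e-06) and Eomes by 0.90 (0.00358) and 0.65 (0.0320). Both are known to drive effector and memory differentiation, and the list's median was 0.30 and 0.22. No gene passed among 5 tested ligands of the members (median -0.14 in homo), 8 costimulatory receptors (0.17), 6 SLAM genes and adaptors (0.04), 3 phosphatases that inhibitory receptors recruit (-0.03) and 4 genes of the adenosine axis (0.62), in homo or in het.

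Of 9 STAT5 targets tested in CD8-gated cells 2 rose, Pim1, a survival kinase, by 1.10 in homo (edgeR adjusted p = 3.85e-05) and Bcl2, a survival protein, by 0.94 (3.85e-05), and both rose in het as well (0.65 and 0.81, adjusted p = 0.0150 and 0.000161). The median of this list was 0.27 in homo. Of 3 follicular helper genes tested, Cxcr5, the chemokine receptor that leads to B cell follicles, rose in homo by 1.62 (edgeR adjusted p = 0.0288), with a list median of -0.43. In homo minus het none of these lists had a gene called in CD8-gated cells.

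In CD4-gated cells of the lymph node, Pdcd1 was seen mostly in WT. It had 7 and 34 UMIs in WT 1 and WT 2, while het 1 to het 3 had 10, 9 and 0 and the homo libraries 0 and 1, which gives 18.6 and 31.3 CPM for WT, 4.002, 12.0 and 0 CPM for het and 0 and 2.56 CPM for homo. Both WT libraries lay above all 5 mutant ones, of which het 3 and homo 1 hold so few UMIs in this gate that 1 UMI there is 19.1 and 19.6 CPM. Tigit was at 15.9 and 18.4 CPM in WT, 2.00, 6.68 and 0 CPM in het and 19.6 and 15.4 CPM in homo, so that het lay below WT, while of the homo libraries homo 2 was just below WT and homo 1 above it on 1 UMI. These levels of Tigit changed with the definition of the gate. When cells with a UMI of Ikzf2, Ctla4 or Il2ra, genes of regulatory T cells that activated T cells also make, were left out as well, Tigit was at 5.68 and 12.7 CPM in WT, at 0 to 0.441 CPM in het and at 0 UMIs in both homo libraries. Pdcd1 was then at 14.2 and 23.3 CPM in WT, 2.65, 5.97 and 0 CPM in het and 0 and 2.75 CPM in homo, again with both WT libraries the highest. Il2ra is a STAT5 target, and which cells this filter removed was not tested.

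Pdcd1 and Tigit were below the filter on low counts, and 2 of the 9 members, Slamf6 and Tox, were tested in the main fit. None of the 2 was called, where 0.555% of 6127 genes were called in homo minus WT, 0.277% in het minus WT and 0.0326% in homo minus het. At an unadjusted edgeR p under 0.05 there was 1 member in homo minus WT, 1 in het minus WT and 0 in homo minus het. Beside them stood 496, 387 and 340 of all 6127 genes. DESeq2 called 0 members in each. With no filter, Pdcd1 in het minus WT was -2.09 (SE 0.440, edgeR adjusted p = 0.00159) and Tigit was -2.34 (SE 0.558, adjusted p = 0.0108), so that 2 of 9 members were called where 0.378% of 14267 genes were. In the same fit homo minus WT was -3.48 for Pdcd1 (SE 1.02, adjusted p = 0.150).

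Tox in CD4-gated cells was at 90.2 and 101 CPM in WT, 84.0, 84.2 and 38.3 CPM in het and 39.2 and 58.9 CPM in homo. WT was again the highest, and homo minus WT was -0.74 (SE 0.313, edgeR adjusted p = 0.508). Slamf6 was at 92.8 and 111 CPM in WT, 57.4 to 77.6 CPM in het and 84.5 to 97.9 CPM in homo (homo minus WT -0.24, SE 0.271, edgeR adjusted p = 0.879). Lag3 reached 19.6 CPM and was at 0 in het 3 and homo 2, and the others were sparse: Havcr2 and Entpd1 did not exceed 2.65 and 6.68 CPM, Cd160 did not exceed 5.30 CPM, and Slamf7 lay at 0 to 5.34 CPM outside homo 1, where 1 UMI made 19.6 CPM.

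**Figure D3:**
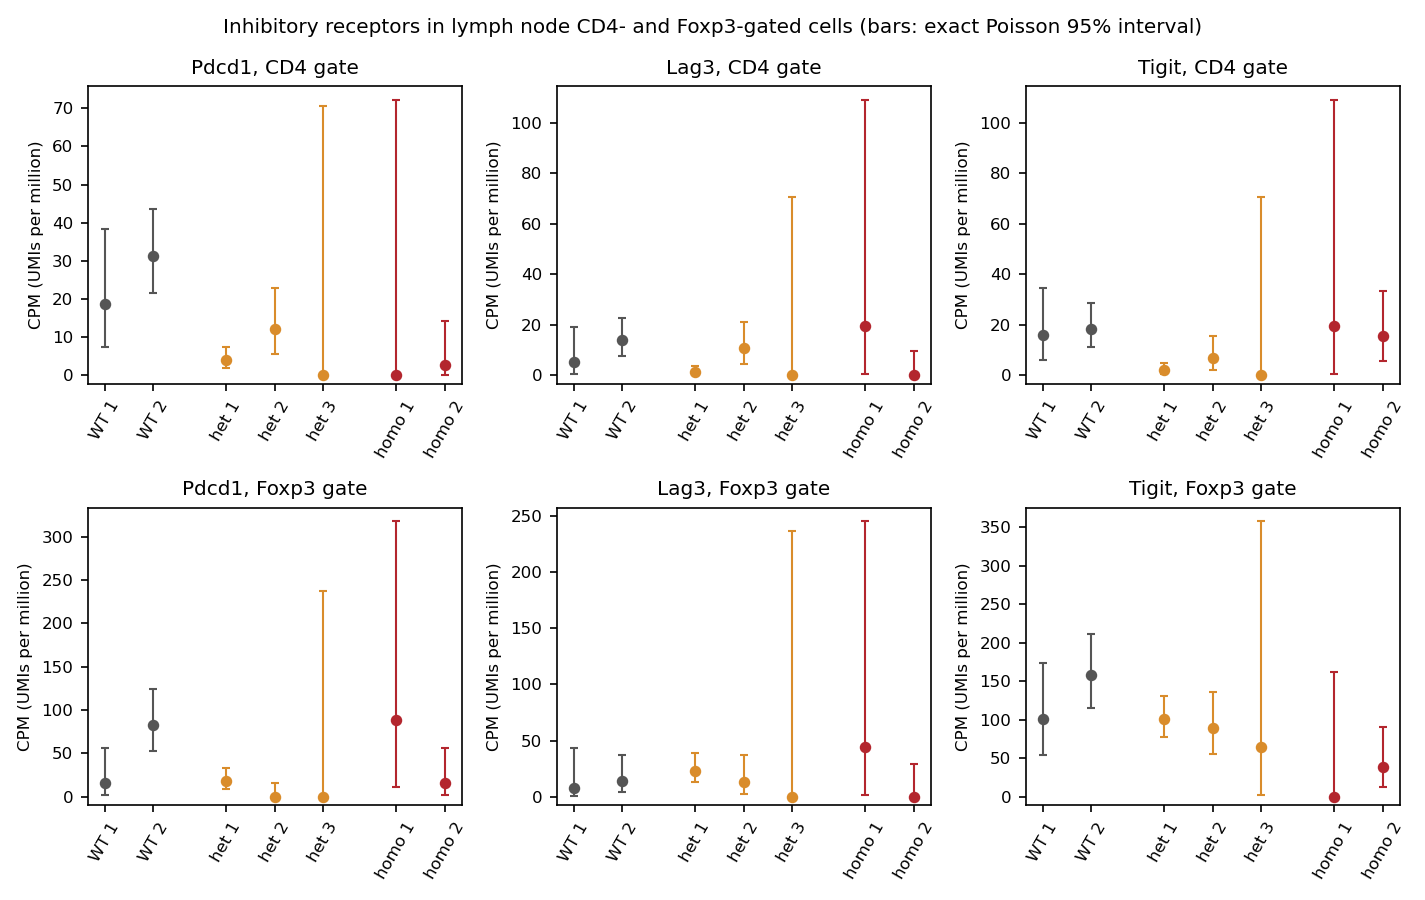
Pdcd1, Lag3 and Tigit in CD4-gated (top) and Foxp3-gated (bottom) cells of the 7 lymph node libraries, in CPM with exact Poisson 95% intervals, 1 point per library. Pdcd1 in CD4-gated cells is at 18.6 and 31.3 in WT and at 0 to 12.0 in the mutants, and the intervals of het 3 and homo 1 are wide.

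In WT, Pdcd1 and Tigit were higher in CD4-gated cells with a UMI of a gene that marks follicular helper cells. These genes do not mark such cells alone, since their summed level in WT lymph node was 154 to 164 CPM in the CD4 gate and 319 to 577 CPM in the Foxp3 gate. When the gate was divided, after these values had been seen, by a UMI of Cxcr5, Bcl6, Il21 or Icos, Pdcd1 in WT was at 92.1 CPM with a marker (95% Poisson interval 58.4 to 138) and at 14.8 CPM without (8.78 to 23.4), and Tigit was at 84.1 and 4.12 CPM. In het Pdcd1 was at 12.1 CPM with a marker (3.94 to 28.3) and at 4.85 CPM without (2.65 to 8.14), below WT in both fractions when the libraries are pooled. By library, Pdcd1 with a marker was at 78.4 and 95.7 CPM in WT against 9.001, 26.9 and 0 CPM in het. Without a marker the libraries overlapped, with 9.20 and 16.9 CPM in WT and 3.23, 10.4 and 0 CPM in het. The homo libraries held 25 cells with a marker and no Pdcd1 UMI in them, which at 95% allows up to 107 CPM, and 1 Pdcd1 UMI in the cells without one (2.45 CPM). For Tigit the het libraries gave 9.71 CPM with a marker against 2.08 CPM without. The homo libraries gave 87.4 CPM, on 3 UMIs of 1 cell, against 9.82 CPM. The share of cells with a marker was 11.2% and 13.4% for WT, 12.0%, 8.49% and 3.64% for het and 3.604% and 5.69% for homo, with het 3 and homo 1 among the lowest and the shallowest.

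Of the follicular helper genes 2 were tested in CD4-gated cells, and Icos, a costimulatory receptor of these cells, fell in het by 1.21 on the log2 scale (edgeR adjusted p = 0.000363), from 106 and 110 CPM in WT to 38.8, 54.8 and 95.7 CPM in het. It was at 78.3 and 43.5 CPM in homo, and the list's median was -1.11 in het and -1.15 in homo. Icos is also 1 of the 9 costimulatory receptors tested, and the other 8 were not called (list median -0.28 in het). Cxcr5 was at 18.6 and 18.4 CPM in WT against 0.8005, 1.34 and 19.1 CPM in het and 0 and 2.56 CPM in homo, the value of het 3 being 1 UMI. Of 7 STAT5 targets Pim1 and Bcl2 rose in homo, by 1.40 and 0.88 (edgeR adjusted p = 8.79e-05 and 0.0330), Bcl2 rose in het by 0.95 (0.000259), and Pim1 was higher in homo than in het by 1.27 (0.000481). No gene was called among the other inhibitory receptors (5 tested), ligands (4), transcription factors (12), SLAM genes (5), phosphatases (3), adenosine genes (2), naive markers (5) and memory markers (3) in CD4-gated cells.

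Foxp3-gated cells, which carry the regulatory T cell factor FOXP3, were few, and the levels varied widely between libraries. Tigit was at 101 and 158 CPM in WT, 101, 89.0 and 64.2 CPM in het and 0 and 39.0 CPM in homo. Both homo libraries were the lowest, and homo minus WT was -1.99 on the log2 scale (SE 0.590) without passing the edgeR test (adjusted p = 0.287). The gate held only 22731 UMIs in homo 1 and 15574 in het 3. Every level of these libraries in this gate rests on few UMIs, and the 0 of homo 1 does not show an absence of Tigit. Pdcd1 was at 15.6 and 82.5 CPM in WT, 18.3, 0 and 0 CPM in het and 88.0 and 15.6 CPM in homo, so that WT and homo covered the same range. Its het minus WT was -2.13 (SE 0.863, edgeR adjusted p = 0.992).

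Tox, Slamf6 and Entpd1 in the Foxp3 gate showed no order by genotype. Tox was at 148 and 115 CPM in WT, 121 to 257 CPM in het and 308 and 62.5 CPM in homo. Slamf6 was at 148 and 115 CPM in WT, 80.6 to 128 CPM in het and 220 and 125 CPM in homo. Entpd1, typical of regulatory T cells, was at 15.6 and 14.3 CPM in WT, 21.6, 21.2 and 0 CPM in het and 0 and 23.4 CPM in homo. Havcr2 was detected in both WT libraries (38.9 and 14.3 CPM) and in het 1 and het 2 (16.6 and 4.24 CPM), and in neither homo library, with group means of 26.6 CPM in WT, 6.95 in het and 0 in homo on 9, 11 and 0 UMIs.

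Of 4 members tested in the Foxp3 gate none was called, where 0.0697% of 2869 genes were called in homo minus WT and 0.0697% in het minus WT, and 0% in homo minus het (139 genes at an unadjusted p under 0.05, and 0 by DESeq2). At an unadjusted edgeR p under 0.05 each contrast had 1 member of the 4, beside 216 of all 2869 genes in homo minus WT and 116 in het minus WT. DESeq2 called 0 members. Among the lists, the costimulatory receptor Tnfrsf9 (4-1BB) fell by 3.53 in homo (edgeR adjusted p = 0.0129), and no other listed gene was called in this gate. WT 2, which has much of the Pdcd1 signal, also held 316 CPM of 5 neutrophil markers in this gate, with 2 of the 5 at 0, whereas all 5 were at 0 in the other 6 libraries, and their part was not tested.

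Shares of cells were compared after each cell was thinned to 500 UMIs, so that depth was equal, and cells with fewer UMIs were left out. This kept 28 of 110 CD4-gated cells in het 3 and 33 of 111 in homo 1, and 9 and 16 Foxp3-gated cells. The 27 comparisons of 9 members in 3 gates were put to an exact two-sided permutation test of an ordered trend over WT, het and homo, which cannot go below p = 0.00952 with these 7 libraries. After adjustment over 27 comparisons no single one could therefore have passed, and that none did (smallest adjusted p = 0.386) says little. The smallest unadjusted p, 0.0286, came with Pdcd1 and with Lag3 in CD4-gated cells (exact permutation test, adjusted p = 0.386 for each). For Lag3 the mean share was 0.526% in WT, 0.122% in het and 0% in homo, homo minus WT being -0.526 percentage points, but at 300 UMIs the difference turned to 0.226 percentage points (exact permutation p = 0.514), on 1 cell in homo 1. The mean share with Pdcd1 was 1.35% in WT (n = 2), 0.288% in het (n = 3) and 0% in homo (n = 2), and before thinning the shares ran from 0% to 3.03% over the 7 libraries. B-gated cells showed no Pdcd1 UMI at this depth in any lymph node library. Slamf7 in CD8-gated cells was found in a mean of 0.546% (WT), 1.54% (het) and 1.71% (homo) of cells (p = 0.152 by the exact permutation test, adjusted p = 0.661), and before thinning in 1.28% to 8.90%. B-gated cells, which make Slamf7 themselves, showed it in 1.74% to 4.88% at the same depth.

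Cells that held UMIs of 2 or more of Pdcd1, Lag3, Tigit and Havcr2 were rare. Thinned to 500 UMIs, none of 8724 CD8-gated lymph node cells and none of 3607 in the spleen did, which limits the share of cells with such UMIs at that depth and not the share that makes both RNAs. Before thinning the share was 0% to 0.211% in the lymph node libraries, the highest in het 2, and 0.0810% in WT, 0.346% in Y665H and 0.0665% in Y665F of the spleen. At 1000 UMIs WT 2, het 1 and het 2 had 1 such cell each. The CD4 gate of the lymph node held 2 such cells of 2747, both in WT 2. In the Foxp3 gate the mean share was 0.994% in WT, 0.193% in het and 0% in homo (exact permutation p = 0.0571, adjusted p = 0.171), which rests on 3 cells in WT and 1 in het. At 300 UMIs the share was 0% in all 7 libraries (exact permutation p = 1), and at 1000 UMIs it was 3.17%, 0.880% and 0% (exact permutation p = 0.0286, adjusted p = 0.0857), with only 1 cell left in homo 1 and 2 in het 3 at that depth, each counted as a library.

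Lymph node T cells with a sequenced receptor were also set apart by clonal size, as a description. The 117 cells of clonotypes seen in 2 or more gated cells of a library held Pdcd1 at 53.2 CPM (95% Poisson interval 25.5 to 97.9) against 5.36 CPM (4.38 to 6.49) in 10705 cells whose clonotype was seen once. Tigit was at 74.5 CPM (40.7 to 125) against 9.55, Slamf6 at 122 against 61.9, Tox at 122 against 59.8, and Slamf7 at 47.9 against 19.96. Havcr2 was at 15.97 CPM (3.29 to 46.7) on 3 UMIs against 0.970, and Cd160 at 37.3 (15.0 to 76.8) against 19.0. Lag3 was at 5.32 CPM on 1 UMI against 3.73, and Entpd1 at 0 against 3.88. The pooled values mix libraries and gates: expanded cells of the WT libraries were 12.5% to 25% CD8-gated, where 67.5% to 69.2% of the cells seen once were, and those of the mutants 75.0% to 100% CD8-gated. Tigit had no UMI in the expanded cells of any het library. Much of the Pdcd1 and Tigit signal came from WT 2, without which Pdcd1 was at 24.3 CPM on 4 UMIs against 3.496, and Tigit at 30.4 against 7.80. Of the expanded cells 59 were in het 2, and the library with the next most held 18.

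For the members above 20 CPM on average, genes with the most similar pattern were sought over the 21 sums of 7 lymph node libraries in 3 gates, where the gates of a library share its depth. Tigit was most like Ikzf4 (Pearson r = 0.956), Ccr4 (0.853) and Mapkapk2 (0.852) among 6170 genes. Tox was most like Cast (0.924), H1f0 (0.922) and Zfp36l1 (0.910), and Slamf6 most like Ctcf (0.901), Zfp36l1 (0.894) and Pbx2 (0.881). The other 6 members were below 20 CPM.

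In the spleen each genotype was 1 library, so no test was possible, the intervals cover counting error only, and a gene was counted as different when its CPM differed over 2-fold on at least 10 UMIs in the pair. In CD8-gated cells Pdcd1 was higher in Y665H, with 3.73 CPM on 23 UMIs against 0.588 CPM on 5 UMIs in WT and 0.641 CPM on 8 UMIs in Y665F. That was 6.35-fold of WT (95% interval 2.36 to 21.4). Havcr2 was at 2.76 CPM in Y665H, 1.29 in WT and 0.241 in Y665F, 2.13-fold higher in Y665H (0.942 to 5.04) and 5.37-fold lower in Y665F (1.42 to 29.997). The B gate of the spleen held 0.172 to 0.523 CPM of Pdcd1 and 0.336 to 1.83 CPM of Havcr2, so that Pdcd1 in WT and Y665F was near this background, Havcr2 in WT was within it and Havcr2 in Y665F was below it. The 5 myeloid markers, all detected in each library, summed in the CD8 gate to 136 CPM in WT, 451 in Y665H and 105 in Y665F, in the order of Havcr2, and their part was not tested. Entpd1 was higher in Y665F, at 6.09 CPM against 2.70 in WT and 2.59 in Y665H, 2.25-fold of WT (1.40 to 3.77).

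Of 8 members with enough UMIs in spleen CD8-gated cells, 2 were past 2-fold in Y665H, where 6.84% of all genes were, and 2 in Y665F, where 8.43% were. Below that limit, Tox was 1.94-fold lower in Y665F (1.71 to 2.20), at 35.7 CPM against 69.2 in WT and 71.8 in Y665H. Slamf6 was 1.79-fold lower (1.67 to 1.93), at 106 CPM against 190 and 200. Slamf7 was 1.53-fold higher in Y665F (1.32 to 1.78), at 45.5 CPM against 29.7 and 34.5. Lag3, Tigit and Cd160 stayed within 2-fold or had too few UMIs, with Cd160 at 27.6 CPM in WT, 34.0 in Y665H and 37.1 in Y665F.

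The share of spleen CD8-gated cells with a Ccl5 UMI was 38.3% in WT, 33.4% in Y665H and 76.8% in Y665F. Within the Ccl5 cells Slamf7 was level, at 61.3, 63.1 and 55.8 CPM in WT, Y665H and Y665F. Tox and Slamf6 were still lower in Y665F in those cells, with 28.8 CPM of Tox against 62.2 in WT and 89.4 CPM of Slamf6 against 160. In cells without Ccl5, Slamf7 was at 16.995 CPM in Y665H against 7.06 in WT and 6.55 in Y665F.

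**Figure D4:**
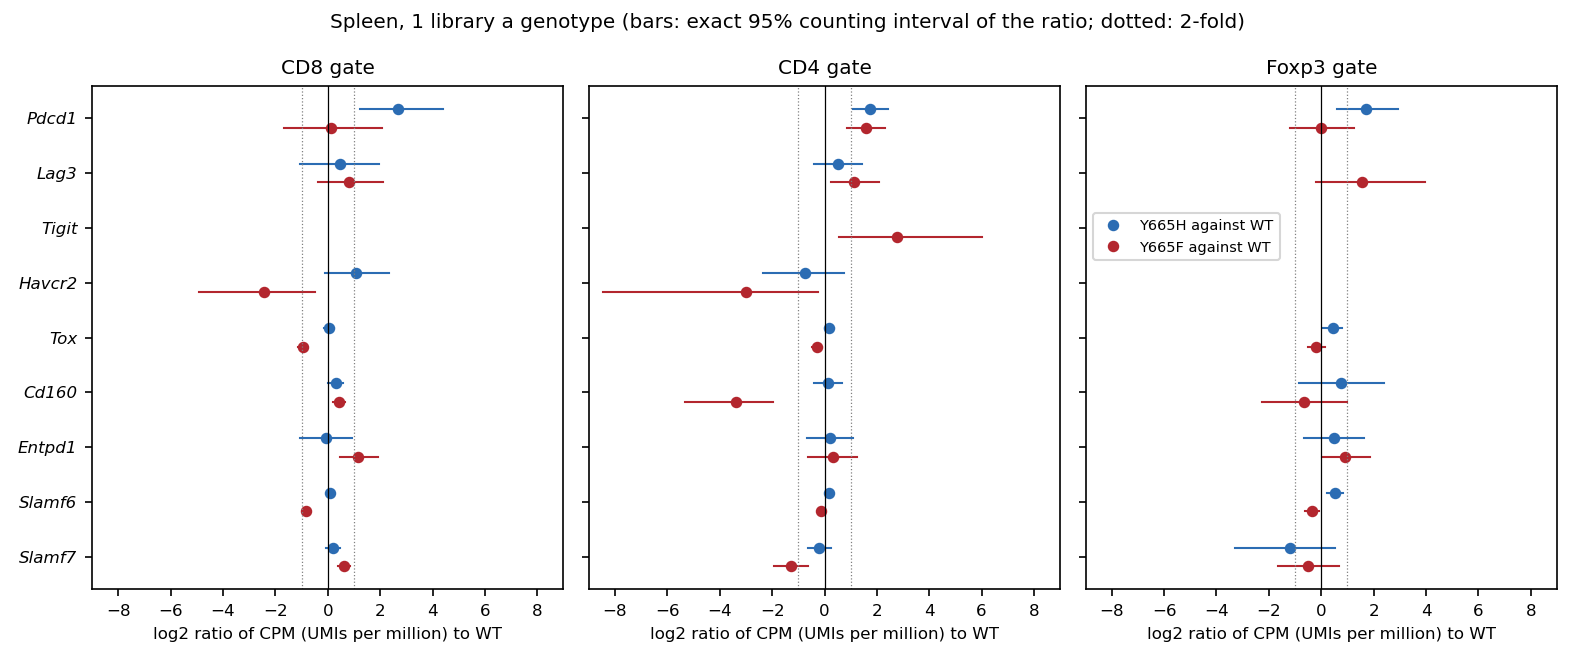
Log2 ratio of CPM in the Y665H and Y665F spleen libraries to the WT library for each member with at least 10 UMIs in the pair, in the CD8, CD4 and Foxp3 gates, with 95% counting intervals. Pdcd1 lies above the WT level in all 3 gates of Y665H, and Cd160, Havcr2 and Slamf7 lie below it in the CD4 gate of Y665F, where Lag3 and Tigit lie above it but did not once cells holding regulatory T cell genes were left out.

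In CD4-gated cells of the spleen Pdcd1 was higher in Y665H, and in Y665F its level changed with the definition of the gate. It was at 4.24 CPM in WT (25 UMIs), 14.1 in Y665H (88 UMIs) and 12.7 in Y665F (55 UMIs), 3.32-fold (2.11 to 5.40) and 2.99-fold (1.83 to 5.01) of WT. Cells with a follicular helper marker held 11.9 CPM in WT (7.24 to 18.3), 34.4 in Y665H (26.99 to 43.3) and 28.4 in Y665F (19.8 to 39.6), and cells without one held 1.19, 3.63 and 6.45 CPM. The share of cells with a marker was 27.2%, 33.1% and 28.9%. The 5 regulatory T cell markers summed in the gate to 146 CPM in WT, 192 in Y665H and 346 in Y665F. With cells holding a UMI of Ikzf2, Ctla4 or Il2ra left out, a choice made after the values were seen, 857, 921 and 503 cells were kept of 1023, 1133 and 662 in WT, Y665H and Y665F. Which cells this removed, regulatory or activated, was not tested. Pdcd1 was at 1.21 CPM in WT (6 UMIs), 5.23 in Y665H (27 UMIs) and 1.47 in Y665F (5 UMIs). That was 4.33-fold of WT in Y665H (1.75 to 12.8) and 1.22-fold in Y665F (0.294 to 4.78).

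Pdcd1 was the 1 member of 8 past 2-fold in Y665H, where 5.39% of all genes were, and it was 1 of 6 members of 9 in Y665F, where 8.44% were. In each spleen gate these shares cover all genes with at least 10 UMIs in the pair. They were not matched to the members for UMI count, and ratios on few UMIs pass 2-fold more easily by counting error. The others in Y665F were Lag3 (2.19-fold higher, 1.18 to 4.19) and Tigit (6.80-fold higher, on 10 UMIs against 2), and lower Cd160 (10.48-fold, 3.88 to 39.8), Havcr2 (8.09-fold, on 1 UMI against 11) and Slamf7 (2.42-fold, 1.57 to 3.83). Of the 11 Havcr2 UMIs in WT 10 were in 2 cells. With the cells holding regulatory T cell genes left out, 4 of 8 members were past 2-fold in Y665H, Pdcd1, Cd160 and Entpd1 higher and Havcr2 lower, where 5.57% of all genes were, and 3 of 8 in Y665F, all lower, where 8.89% were. Lag3 was then lower in Y665F and not higher (0.294 CPM on 1 UMI against 1.81 on 9), Tigit had 2 UMIs in WT and 1 in Y665F, Cd160 was at 2.42 CPM in WT, 6.78 in Y665H and 1.18 in Y665F, and Slamf7 at 8.86, 10.46 and 5.88. The 5 NK cell markers summed to 18.8 CPM in WT, 19.8 in Y665H and 7.39 in Y665F, with 1 of the 5 at 0 in Y665F, and their part in the lower Cd160 and Slamf7 was not tested.

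In Foxp3-gated spleen cells Pdcd1 was at 12.0 CPM in WT, 39.2 in Y665H and 11.8 in Y665F. It was 3.27-fold of WT in Y665H (1.52 to 7.63). With Slamf7, at 14.4 CPM in WT and 6.27 in Y665H, it was 1 of 2 of 6 members past 2-fold, where 8.84% of all genes were. In Y665F 1 of 7 was, Lag3 (10.6 against 3.596 CPM, on 18 and 3 UMIs), where 10.2% of all genes were.

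RNA of neutrophils was present in the spleen gates and differed between genotypes. The 5 neutrophil markers summed in CD8-gated cells to 25.3 CPM in WT, 3197 in Y665H and 737 in Y665F, in CD4-gated cells to 20.03, 524 and 2144, and in Foxp3-gated cells to 32.4, 426 and 343. Their part in the spleen ratios was not tested.

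The order of Pdcd1 was not the same in both tissues. In CD4-gated cells it was lower in the Y665F lymph node libraries than in WT and higher in the Y665F spleen library than in the WT library. The spleen order was nearly lost (1.47 against 1.21 CPM) once cells with regulatory T cell genes were left out, and the lymph node order was not. The difference between tissues was not tested, since the spleen has 1 library a genotype.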

How the data were processed

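Single-cell libraries of lymph node and spleen were read as deposited by the authors: UMI counts per gene and barcode, not normalized. Per the labels' processing notes they used Cell Ranger 5.0 and Seurat 4.0 on mm10. The study's methods name later releases of both, and the headers of the counts name different Cell Ranger releases for lymph node and spleen. The labels name a 3′ kit and the methods a 5′ kit. Barcodes needed 200 detected genes and no more than 10% mitochondrial UMIs, and the highest-scoring barcodes by likeness to simulated doublets were removed, 0.8% per 1000 barcodes. UMIs of gated cells were summed per library and the 7 lymph node sums fitted together by genotype with edgeR 4.0.16 in R 4.3.3 (TMM, filterByExpr, robust quasi-likelihood, Benjamini-Hochberg over all genes, call at adjusted p under 0.05), after a test on simulated data. CPM is UMIs per 1000000 of the gate's sum. DESeq2 1.42.0 was an alternative. Spleen ratios and clonal sizes carry exact 95% counting intervals. Each library is 1 sample, and p-values measure the spread between these samples. All 9 members are named, and of each gene list at most the 4 largest changes that passed. The members and lists were chosen with earlier results of these data known. Bone marrow was not used here.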

Additional observations from a re-analysis of the deposited data

How the results depend on the processing

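The fits were repeated with other size factors, DESeq2, no filter on low counts, doublets kept, at least 300 genes a cell, 2 lineage UMIs, 1 B cell UMI allowed, a replicate block, no shallow libraries and each library left out. Of 344 lymph node fold changes of members that passed the filter on low counts in the main fit, 337 kept their direction. They come from refits of the same libraries against WT, and members below the filter in a gate are not among them. The members called in CD8 homo minus WT (1) were 0 with DESeq2, 2 with no filter and 0 to 1 with a library left out (0 without WT 2 or homo 2). In CD8 het minus WT (0) they were 1 with 2 lineage UMIs, 2 with no filter and 0 to 1 with a library left out (1 without WT 1). In CD4 het minus WT (0) they were 2 with no filter and 0 to 2 with a library left out (2 without WT 1, homo 1 or homo 2, 1 without het 3), and in Foxp3 het minus WT (0) 0 to 1 (1, Pdcd1, without WT 1). Spleen members past 2-fold were 1 and not 2 in CD8 Y665H with 2 lineage UMIs or doublets kept, 2 and not 1 in CD4 Y665H and 4 of 7 and not 6 of 9 in CD4 Y665F with 2 lineage UMIs, and 2 and not 1 in Foxp3 Y665F with doublets kept or TMM scaling. With regulatory T cell genes also excluded, chosen for the spleen after the data were seen, they were 4 and not 1 in CD4 Y665H and 3 and not 6 in CD4 Y665F, where Lag3 turned to a log2 ratio of -2.62. In the Foxp3 gate homo minus WT turned positive for Pdcd1 without WT 2 or homo 2 (range with a library left out -1.74 to 0.78) and negative for Slamf6 without WT 2 (-0.094 to 0.44), and Tox went to 0.072 with DESeq2 and positive without homo 2 (-0.89 to 0.93). Tox het minus WT went to -0.055 with the replicate block and negative without WT 2 (-0.20 to 0.20). Lag3 in CD4-gated cells, homo minus WT, was 0.226 percentage points when thinned to 300 UMIs. The cause of these changes was not tested.

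Replicate numbers only name samples: same-numbered libraries had deviations correlated at -0.08 to 0.05. With the replicate block Slamf7 in CD8 homo minus WT was 1.54 (edgeR adjusted p = 0.0113), and 1 member was called there as before. Genes called in all, on which the printed shares rest, fell from 201 to 52 with DESeq2 in CD8 homo minus WT, and from 99 to 21 in het minus WT. With a library left out they were 26 (without homo 2, and 69 without WT 2) to 252 and 12 (without WT 2, and 38 without het 1) to 108, and in CD4 homo minus WT, against 34, 0 (without homo 2, and 18 without WT 2 or het 2) to 33, 1 with DESeq2 and 12 with the replicate block. In CD4 het minus WT, against 17, they were 7 (without het 1) to 57 (without WT 1), with 10 without WT 2, 33 without homo 1 and 44 without homo 2, 2 with DESeq2 and 11 with the replicate block. In the Foxp3 gate, against 2 genes called in homo minus WT and 2 in het minus WT, there were 6 and 7 without het 3 and 1 and 0 without het 1. DESeq2 called 0 in both. The counts were higher still without het 3 and homo 1, a fit that leaves a single homo library. With 2 lineage UMIs no member could be tested in the CD4 gate. Low UMI counts of Pdcd1, Lag3, Tigit and Havcr2 limited most comparisons of these genes.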
